A study of Mus musculus with 8 samples.

Results

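H3K27ac, the acetylated form of lysine 27 on histone H3, was called higher in Nrip1 KO myotubes at 312 promoter regions outside chromosomes 4, 7, 10 and 16. These were the regions of the increased list that lay on the other autosomes or on X and had their centre within 1 kb of an annotated transcript start. They were chosen by the direction of the H3K27ac difference, by their chromosome and by the distance to a start, so these 3 properties are described without a test. They made up 312 of 2358 increased regions on these 16 chromosomes (13.2%, 95% Wilson interval 11.9 to 14.7), of 3917 increased regions in all and of 11180 regions in both lists. The same definition found 606 promoter regions among 5445 decreased regions (11.1%, interval 10.3 to 12.0), and these were the comparison. The first start of a gene is its most upstream annotated start, and any other is called internal here, even where it lies close to the first. A gene was counted where any of its transcript starts lay within 1 kb of a region centre. Of 42020 annotated genes on these chromosomes, 348 had an increased promoter region (0.828%) and 654 a decreased one (1.56%). Among the 16720 protein-coding genes, the counts were 260 (1.56%) and 446 (2.67%). All intervals reflect the number of regions counted and no other source of error.

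The 8 libraries comprised 2 each of Nrip1 KO and control (Ctrl) myotubes with an H3K27ac antibody, and 2 each with IgG, the unspecific antibody control. Myotubes are the fused muscle cells formed by cultured satellite cells. Satellite cells from gastrocnemius muscle were preplated to remove other cells, used at passages 6 to 9 and differentiated for 4 days, and nuclei were pooled and then divided between antibodies. The study describes the myotubes as those of its striated muscle KO line, in which floxed Nrip1 mice (C57BL/6J) had been bred with C57BL/6JN mice carrying Cre under the muscle creatine kinase promoter, and controls were Cre-negative littermates. That promoter is active in differentiating and mature muscle cells. The regions were those that the authors called as differing by 2-fold or more, and only their positions were given. Sequencing depth, the magnitude of each change, IgG background and variation between cultures are therefore unknown here. Loss of Nrip1 transcript could not be checked. Of 24 marker genes of myotubes, satellite cells, fibroblasts and other cell types located on these chromosomes, 0 had a promoter region in either list. A list of differing regions does not show whether those genes carried the mark, so cell identity could not be checked.

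H3K27ac is deposited by the acetyltransferases CBP and p300 on nucleosomes of active promoters and enhancers, and at active promoters it flanks the transcription start, where nucleosomes are often displaced. Promoters of broadly expressed genes usually lie in CpG islands, stretches rich in G and C where the dinucleotide CG has not been depleted, whereas many tissue-restricted promoters are CpG-poor. RIP140, the protein encoded by Nrip1, is a coregulator that binds nuclear receptors and can recruit histone deacetylases.

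Both kinds of promoter sequence occurred among the increased regions. The 150 bases directly upstream of the start are shown for some of the widest increased regions whose nearest start was the first start of a protein-coding gene, leaving out stretches that overlap an annotated UTR, as read from the GRCm38 (mm10) genome 5′ to 3′ on the strand of the gene, with every CG in capitals. The first 3 had CpG-poor starts. They belonged to 4930455H04Rik, to Col5a2, a chain of the fibrillar collagen type V, and to Inhba, the subunit of activin A.
4930455H04Rik, chr3:116968117-116968266, plus strand: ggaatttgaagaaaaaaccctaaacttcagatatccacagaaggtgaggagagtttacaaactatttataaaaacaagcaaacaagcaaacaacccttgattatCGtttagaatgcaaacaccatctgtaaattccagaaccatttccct
Col5a2, chr1:45503283-45503432, minus strand: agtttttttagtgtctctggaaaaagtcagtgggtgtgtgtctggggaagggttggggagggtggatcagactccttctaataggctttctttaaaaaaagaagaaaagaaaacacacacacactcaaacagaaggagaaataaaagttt
Inhba, chr13:16011701-16011850, plus strand: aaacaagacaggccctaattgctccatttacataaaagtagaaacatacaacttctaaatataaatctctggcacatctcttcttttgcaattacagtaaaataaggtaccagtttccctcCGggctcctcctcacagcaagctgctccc
The next 3 had CpG-rich starts. They belonged to Arhgef5, an exchange factor for small GTPases, to Chchd5, a small mitochondrial protein, and to Pcnx4.
Arhgef5, chr6:43265432-43265581, plus strand: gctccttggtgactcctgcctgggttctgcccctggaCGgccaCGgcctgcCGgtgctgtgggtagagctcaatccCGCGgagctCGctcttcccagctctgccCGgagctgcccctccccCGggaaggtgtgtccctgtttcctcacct
Chchd5, chr2:129129550-129129699, plus strand: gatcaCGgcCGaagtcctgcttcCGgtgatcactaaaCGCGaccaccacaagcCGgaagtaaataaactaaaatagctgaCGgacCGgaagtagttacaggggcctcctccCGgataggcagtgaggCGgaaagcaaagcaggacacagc
Pcnx4, chr12:72536233-72536382, plus strand: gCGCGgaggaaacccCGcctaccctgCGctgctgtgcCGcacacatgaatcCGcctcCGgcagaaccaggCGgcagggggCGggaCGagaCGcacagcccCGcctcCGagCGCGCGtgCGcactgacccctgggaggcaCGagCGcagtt
For comparison, wide decreased regions at a CpG-poor and at a CpG-rich first start are shown, at Ip6k3, an inositol hexakisphosphate kinase, and at Zic4, a zinc finger transcription factor.
Ip6k3, chr17:27167796-27167945, minus strand: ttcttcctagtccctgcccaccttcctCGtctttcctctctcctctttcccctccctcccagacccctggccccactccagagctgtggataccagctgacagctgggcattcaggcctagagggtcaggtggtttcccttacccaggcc
Zic4, chr9:91362263-91362412, plus strand: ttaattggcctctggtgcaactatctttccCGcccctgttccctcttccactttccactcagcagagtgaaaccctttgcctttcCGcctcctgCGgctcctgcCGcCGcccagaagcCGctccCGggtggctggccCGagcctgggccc
The stretches shown for 4930455H04Rik, Col5a2 and Inhba held 1, 0 and 1 CG, compared with 8, 10 and 19 for Arhgef5, Chchd5 and Pcnx4. The stretch of Ip6k3 held 1 CG although its GC content was 60.7%, and that of Zic4 held 8.

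Increased promoter regions lay at CpG-rich starts more often than decreased ones. A start was called CpG-rich when the 500 bases centred on it had a GC content of at least 55% and at least 0.6 of the CG count that their C and G content would give by chance pairing (observed/expected CpG). By this definition 105 of 312 increased regions had a CpG-rich nearest start (33.7%, interval 28.6 to 39.1), compared with 128 of 606 decreased regions (21.1%, interval 18.1 to 24.5). This corresponded to an odds ratio of 1.89 (adjusted p = 0.000117 by Fisher's exact test, two-sided like those that follow, with Benjamini-Hochberg adjustment over 6 shares). The median observed/expected CpG at the nearest start was 0.530 (quartiles 0.283 and 0.801) for increased and 0.272 (quartiles 0.172 and 0.565) for decreased regions, while the median GC content of the same windows was close, at 53.2% and 53.8%. Among all 16720 first starts of protein-coding genes on these chromosomes, 45.6% were CpG-rich and the median observed/expected CpG was 0.604. That set is unlike the nearest starts of regions, which include internal starts and starts of non-coding genes. With starts of protein-coding genes only, internal ones included, 40.9% of increased and 28.2% of decreased regions were at CpG-rich starts (odds ratio 1.77, Fisher's exact test, adjusted p = 0.00101). In this test and the next ones regions are the units, and the p-values describe the lists, not agreement between cultures. The difference depended on how position was defined. With centres within 0.5 kb of a start, the odds ratio was 1.13 (Fisher's exact test, adjusted p = 0.852), and with the 500 bases taken around the region centre it turned to 0.684, with 9.29% of increased and 13.0% of decreased regions CpG-rich.

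**Figure D1:**
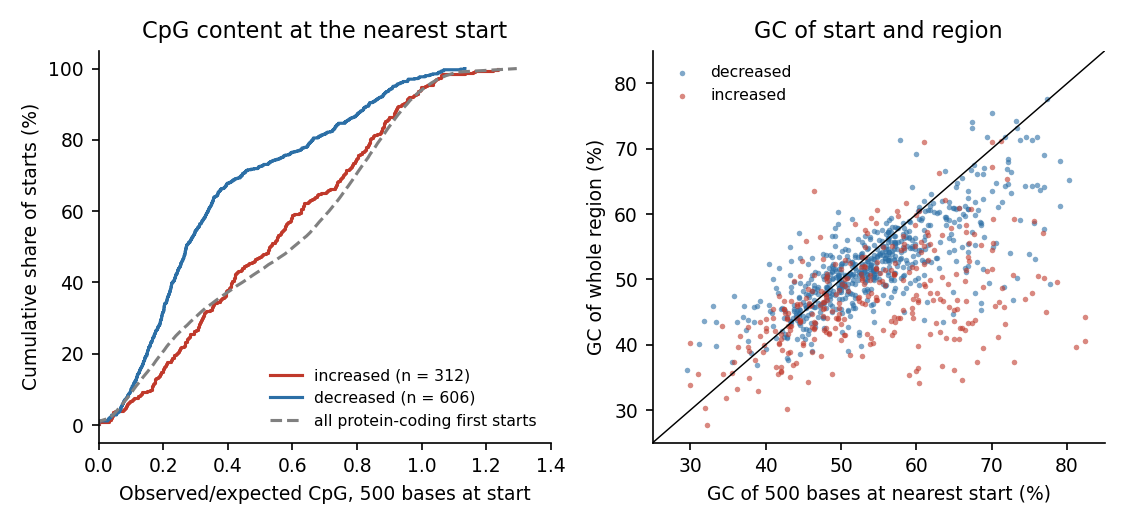
The left panel plots the cumulative share of regions against observed/expected CpG in the 500 bases at the nearest start, for increased (n = 312) and decreased (n = 606) promoter regions and, dashed, for all 16720 protein-coding first starts. The increased curve lies close to the dashed one with a median of 0.530, and the decreased curve lies to its left with a median of 0.272; the right panel plots the GC content of each whole region against that of its start window, with the line of equality, and many increased regions at GC-rich starts fall far below that line.

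The regions themselves did not share the base composition of those starts. The GC content of whole increased promoter regions was 46.9% ± 7.36 (SD, n = 312 regions), compared with 52.3% ± 6.76 for decreased ones (SD, n = 606 regions). Away from starts it was 42.3% ± 4.80 for the 2046 increased and 47.5% ± 4.75 for the decreased regions (SD over regions), a gap of the same sign. At CpG-rich starts, increased regions had a median GC content of 48.8% and decreased regions one of 60.3%. Most increased regions at CpG-rich starts lay beside the start and not over it. A comparison of position within the start classes was added after these values had been seen, and it is given with intervals and no test. Only 25 of 105 increased regions at CpG-rich starts covered an annotated start (23.8%, interval 16.7 to 32.8), whereas 93 of 128 decreased regions did (72.7%, interval 64.4 to 79.6). These shares were not adjusted for width, whose median was 683 bases for these increased and 895.5 bases for these decreased regions. At the other starts the shares were closer, with 117 of 207 increased regions (56.5%, interval 49.7 to 63.1) and 290 of 478 decreased regions (60.7%). The centre lay more than 500 bases from the start for 58 of 105 increased regions at CpG-rich starts (55.2%, interval 45.7 to 64.4) and for 31 of 128 decreased ones (24.2%, interval 17.6 to 32.3). Between 500 and 1000 bases downstream lay 35.2% of these increased regions, and 20.0% lay as far upstream. The share with a centre within 100 bases of the start was 9.52%, compared with 22.7% of decreased regions.

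**Figure D2:**
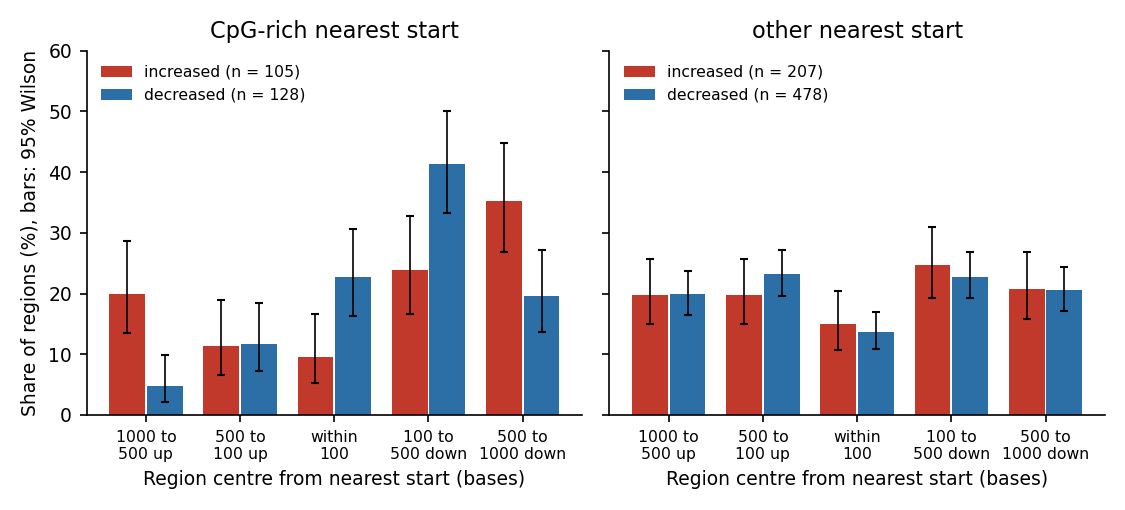
Bars give the share of promoter regions (%) with their centre in each range of distance upstream (up) or downstream (down) of the nearest start, with 95% Wilson intervals, for CpG-rich starts (left) and other starts (right). At CpG-rich starts 35.2% of increased regions lie in the range farthest downstream, 23.8% at 100 to 500 bases downstream and 20.0% in the range farthest upstream, while decreased regions peak at 100 to 500 bases downstream (41.4%); at other starts the intervals of both directions overlap in every range.

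Examples from the gene lists described below show this placement. Positions beside a CpG-rich start were held by Ezh2, the catalytic subunit of the Polycomb complex that methylates H3K27, whose increased region of 501 bases (chr6:47595669-47596169) had its centre 578.5 bases upstream of the first start, and by Mcm3, a subunit of the replicative helicase, with a region centred 651.5 bases downstream of an internal start (chr1:20819358-20819858). At the CpG-poor first start of Cd36, the fatty acid transporter, the region covered the start and its centre was 39 bases upstream (chr5:17887647-17890032).

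Starts of protein-coding transcripts and first starts of genes were also more frequent among increased regions. A protein-coding transcript start lay within 1 kb of 225 of 312 increased regions (72.1%, interval 66.9 to 76.8), compared with 306 of 606 decreased regions (50.5%, interval 46.5 to 54.5), an odds ratio of 2.54 (Fisher's exact test, adjusted p = 1.64e-09). This feature overlaps with CpG content. The median observed/expected CpG was 0.649 for increased and 0.451 for decreased regions with such a start, and 0.309 and 0.212 without one. The 2 differences are therefore not separate results. First starts were within reach of 214 increased (68.6%, interval 63.2 to 73.5) and 360 decreased regions (59.4%, interval 55.4 to 63.2), with an odds ratio of 1.49 (Fisher's exact test, adjusted p = 0.0115). The second difference fell short of the threshold with 1 region per locus of 100 kb (odds ratio 1.38, Fisher's exact test, adjusted p = 0.0530) and turned to 0.958 within 0.5 kb of a start. The gene of the nearest start was protein-coding for 243 increased regions (77.9%) and 436 decreased regions (71.9%). Of these, 30 increased (12.3%) and 138 decreased regions (31.7%) had no start of a transcript annotated as protein-coding within 1 kb. Starts near them were of other annotated forms, such as retained-intron transcripts. Long non-coding RNA genes were nearest to 43 increased and 104 decreased regions. The side of the start did not differ past the threshold, with 176 increased (56.4%) and 332 decreased regions (54.8%) centred downstream (odds ratio 1.07, Fisher's exact test, p = 0.674). Starts on both strands, called divergent starts here whether or not they point away from each other, lay within 1 kb of 34 increased (10.9%) and 49 decreased regions (8.09%). The odds ratio was 1.39 (Fisher's exact test, adjusted p = 0.217).

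**Figure D3:**
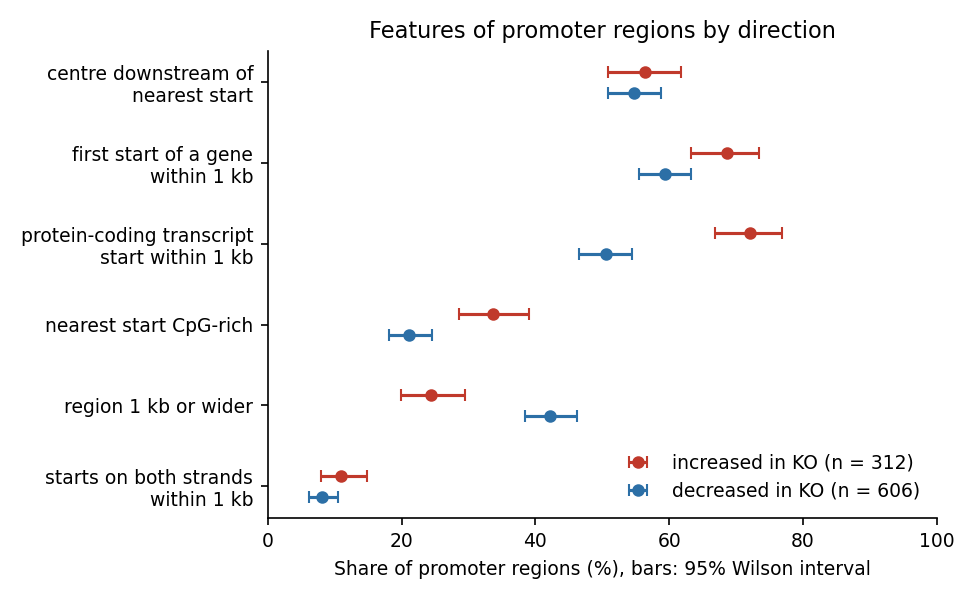
Points give the share of promoter regions (%) with each of the 6 features tested, in red for increased (n = 312) and in blue for decreased regions (n = 606), with 95% Wilson intervals. The intervals separate for protein-coding starts (72.1% and 50.5%), CpG-rich starts (33.7% and 21.1%) and widths of 1 kb or more (24.4% and 42.2%), and they overlap for side of the start and divergent starts.

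Increased promoter regions were narrower than decreased ones, as were increased regions away from starts. The median width of increased promoter regions was 726.5 bases (quartiles 501 and 979), compared with 858 bases (quartiles 631 and 1401) for decreased ones. Away from starts the medians were 741 bases for increased and 843 bases for decreased regions, so the difference was not particular to promoters. The smallest width in the lists, 501 bases, was held by 99 increased (31.7%) and 122 decreased promoter regions (20.1%). A width of at least 1 kb was reached by 76 increased (24.4%, interval 19.9 to 29.4) and 256 decreased regions (42.2%, interval 38.4 to 46.2), with an odds ratio of 0.440 (Fisher's exact test, adjusted p = 2.15e-07). Regions joined from several called peaks were 21 of the increased (6.73%) and 62 of the decreased ones (10.2%).

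The 10 widest increased promoter regions each covered an annotated start. The widest, of 8596 bases (chr3:55779573-55788168), lay at an internal start of Nbea, which encodes neurobeachin, a protein of vesicle traffic. Next were regions of 5492 bases at the microRNA gene Mir1961 (chromosome 5) and of 4038 bases at the long non-coding RNA gene AC147026.3 (chromosome 19). Dynap had a region of 3392 bases on chromosome 18. A region of 3022 bases (chr1:189342889-189345910) covered starts of Kcnk2, which encodes the background potassium channel TREK-1, and of its neighbour A430027H14Rik. At 2987 bases, the region chr1:150098280-150101266 covered starts of Ptgs2, the inducible cyclooxygenase of prostaglandin synthesis, and of the antisense gene Ptgs2os, whose start was nearest to its centre at 43.5 bases. Internal starts were covered at Sufu, an inhibitor of Hedgehog signalling (2985 bases), and at Lrpprc, which stabilises mitochondrial messenger RNA (2955 bases). The small nucleolar RNA gene Gm23274 (3005 bases) and 4930455H04Rik (2679 bases) completed the 10. None of the 10 nearest starts was CpG-rich, and the widest increased region at a CpG-rich start, at Arhgef5, measured 1913 bases.

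Genes with several regions were few. Cped1, Etl4, Mir16-2, Armc1 and Svil each had 2 increased promoter regions. At Armc1, which encodes a mitochondrial protein, the regions sat on both sides of a single CpG-rich first start, with centres 515 and 938.5 bases away (chr3:19163188-19163971 and chr3:19161671-19162581), and left the start itself uncovered. At Svil, encoding the actin-binding supervillin, both regions of 501 bases were at internal starts. Regions of both directions were found at 11 genes, all protein-coding, namely Adcy7, Magi2, Ankrd12, Angpt2, Psd3, Safb2, Polr2g, Lmo7, Xpr1, Ccnf and G3bp2. The increased and the decreased region had different nearest starts in each, a median of 11329 bases apart. For Ccnf and Polr2g, both starts lay within 1 kb of the centre of the increased region. At Ccnf, which encodes cyclin F, the starts were 91 bases apart, with a decreased region over the start (chr17:24251111-24251774) and an increased one downstream (chr17:24250359-24250859). Polr2g, a subunit of RNA polymerase II, showed the same order with starts 82 bases apart. At Adcy7, an adenylyl cyclase, the increased region lay beside the CpG-rich first start (chr8:88272853-88273614) and 3 decreased regions lay at internal starts. Angpt2, the angiopoietin that antagonises TIE2 in vessels, had an increased region of 950 bases over its first start (chr8:18741147-18742096) and a decreased region at an internal start 42015 bases away.

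Gene lists with roles in muscle and in signalling held genes with promoter regions of both directions. Of 611 genes of 17 lists on these chromosomes, 16 had an increased promoter region (2.62%) and 21 a decreased one (3.44%), beside 1.56% and 2.67% of all protein-coding genes. No test was made on the lists. They were written with earlier results of these data known, so no conclusion is drawn from their higher shares. At least 1 member was increased in 13 lists and 0 in the other 4.

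Among contractile and myogenic genes, 1 of 42 sarcomere genes and 1 of 29 myogenic regulators had an increased promoter region, and 0 of either had a decreased one. Over all protein-coding genes, the shares were 1.56% and 2.67%. The sarcomere gene was Neb, which encodes the thin filament protein nebulin, with a region of 837 bases at an internal start (chr2:52338973-52339809). The regulator was Tcf4, a basic helix-loop-helix partner of the myogenic factors, with a region of 501 bases centred 0.5 bases from an internal start on chromosome 18. Excitation-contraction coupling and ion channel genes had 0 of 35 increased and 3 decreased, namely Atp2a2, the calcium pump of the sarcoplasmic reticulum, Cacna1h and Mtm1. The nearest start was internal in all 3, and the region at Atp2a2 (chr5:122500879-122503352) also covered its first start.

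Of the neuromuscular junction and neurotrophic list, 2 of 31 genes were increased and 1 decreased. The shares over all protein-coding genes were 1.56% and 2.67%, so few members would be held in a list of this size. Dmd, encoding dystrophin, had a region of 1609 bases with its centre 975.5 bases downstream of an internal start (chrX:82949074-82950682), and Bdnf, a neurotrophin, one of 776 bases at an internal start. The decreased gene was Chrne, the subunit of the acetylcholine receptor that replaces the fetal one at mature junctions, whose region lay over the first start (chr11:70618947-70619737). In axon guidance, 2 of 44 genes were increased, Efna5, an ephrin ligand (945 bases), and Sema3a, a secreted repellent (501 bases), both at internal starts. Plxna1, a receptor subunit for such semaphorins, had 4 decreased promoter regions, all at internal starts and between 501 and 1533 bases wide.

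Matrix genes had 2 of 40 members increased. This count and those of the lists that follow stand beside 1.56% of all protein-coding genes increased and 2.67% decreased. For Col5a2 the region measured 2619 bases and covered the first start (chr1:45501082-45503700). The region of Vcan, the proteoglycan versican, measured 1002 bases and was centred 354 bases downstream of an internal start. Col4a1, a basement membrane collagen chain, had a decreased region at an internal start. Among ligands of signalling pathways, Inhba had an increased region of 2514 bases over its first start (chr13:16010933-16013446). It was the single increased member of 41 genes of the TGF-beta and BMP list, where the receptor gene Acvrl1 was decreased at an internal start. Lif, a cytokine of the interleukin-6 family, was the single increased member of 40 cytokine and innate immune genes (905 bases, internal start). The decreased members of that list were Nfkb2 and Rela, both subunits of NF-kappaB, and Stat5a, all at internal starts. Apc, a scaffold of the complex that degrades beta-catenin, was the 1 increased gene of 48 in the Wnt list (1976 bases, internal start). Klf10, a transcription factor induced by TGF-beta, was the 1 of 32 in the list of AP-1, immediate early and Hippo genes (802 bases, internal start).

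Metabolic genes are given beside the shares over all protein-coding genes, 1.56% with an increased and 2.67% with a decreased promoter region. At such shares, lists of this size would hold few members. Mitochondrial respiration and its regulators had 0 of 38 genes in either direction. Among 45 genes of fatty acid and lipid metabolism, Cd36 was increased and Acacb, the acetyl-CoA carboxylase of muscle, and Acsl6, an acyl-CoA synthetase, were decreased. The nearest start was the first one at Cd36 and Acacb and an internal one at Acsl6. The insulin, IGF and muscle size list had 0 of 31 increased and 2 decreased, Rictor and Rps6kb1, both of mTOR signalling. Both had an internal nearest start, and the region at Rictor also covered its first start. Chromatin coregulators had 1 of 36 increased, Ezh2, and 5 decreased, among them the histone deacetylase genes Hdac8 and Hdac11, Dnmt3a, a DNA methyltransferase, and Tet3, which oxidises methylcytosine. In all 5 decreased genes the nearest start was an internal one. The cell cycle list had 1 of 29 increased, Mcm3. Angpt2 was the 1 increased and the 1 decreased gene of 35 in the angiogenesis and hypoxia list. Markers of other cell types had 0 of 21 increased and 1 decreased, Dpp4, at an internal start.

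**Figure D4:**
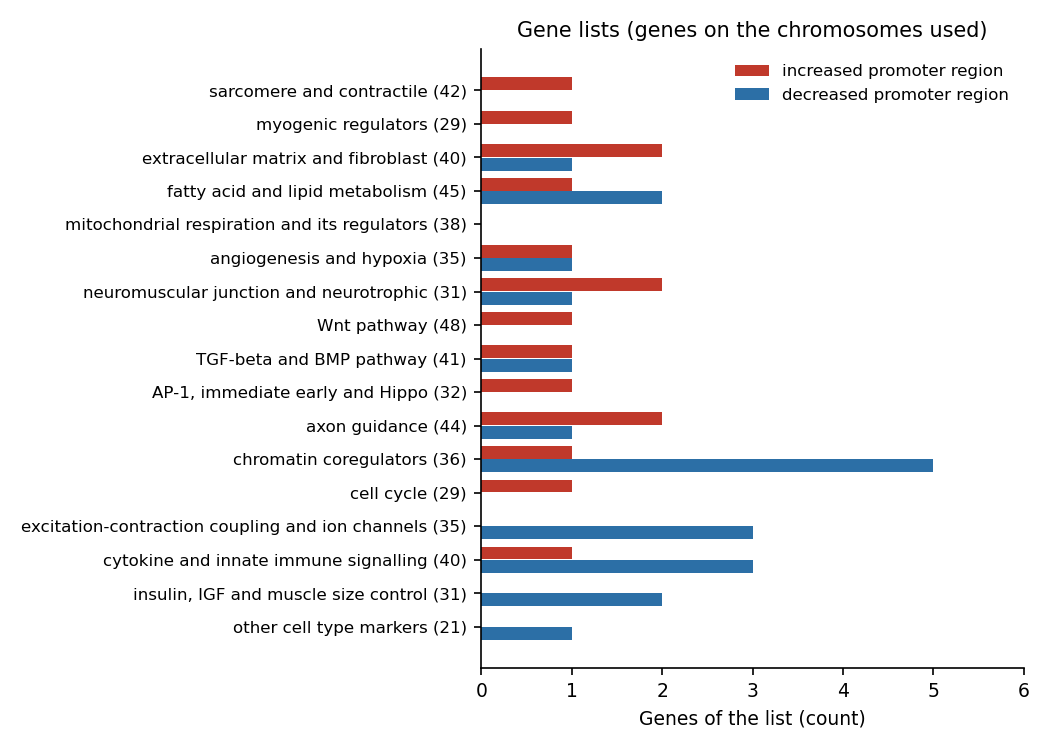
Bars give, for each of 17 gene lists, the number of genes with an increased (red) and a decreased (blue) promoter region, with the number of list genes on the chromosomes used in parentheses. No list has more than 2 increased genes, and chromatin coregulators have the most decreased ones (5 of 36).

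Short sequence motifs were searched on both strands in the 300 bases from 250 before to 50 after the nearest start. Of the 311 distinct promoters at increased regions, 28 (interval 6.30% to 12.7%) held the AP-1 motif TGANTCA, compared with 6.62% of the 604 promoters at decreased regions and 6.79% of all protein-coding first starts. At starts that were not CpG-rich these shares were 11.1%, 7.56% and 9.59%, and at CpG-rich starts 4.81%, 3.125% and 3.44%. The 3 sets differ in their share of CpG-rich starts, and the shares below are not split by class unless stated. The E-box CAGCTG, the form bound by many myogenic factors, was present in 17.7% of increased (interval 13.8 to 22.3) and 24.8% of decreased promoters (interval 21.6 to 28.4), beside 15.7% of all. GGGCGG, the site of SP and KLF factors, was found in 37.6%, 27.6% and 43.7%, and within CpG-rich promoters in 72.1%, 80.5% and 74.5%. CATTCC, the core of TEAD sites, was found in 16.7%, 15.4% and 13.5%. The nuclear receptor core site AGGTCA was present in 13.2% of increased, 17.9% of decreased and 14.5% of all promoters, and the extended ERR site TCAAGGTCA, which contains that core, in 0.965%, 0.497% and 0.407%. The MEF2 motif was found in 4.50%, 3.81% and 2.81%. Its letters can overlap the TATA motif TATAAA, which was present in 12.5%, 11.6% and 12.2%. Shares for TGACGTCA (CRE) were 1.29%, 0.828% and 2.48%, for CCGGAAG (ETS) 7.07%, 7.28% and 11.0%, for CCAAT (NFY) 34.7%, 34.4% and 38.5%, and for GCGCATGC (NRF1) 2.57%, 1.82% and 3.39%. TGTGGT (RUNX) was found in 46 of 311 increased and 115 of 604 decreased promoters and in 15.1% of all. A match is a run of letters and shows no binding. The stretch searched was placed on the start and need not lie within the region. No start within 1 kb of the centre was covered by 170 of 312 increased regions (54.5%) and 223 of 606 decreased regions (36.8%).

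Matches in the 250 bases before the start of list genes are shown with 10 bases on each side, cut at the start itself, on the strand of the gene, with the match in capitals. They show what the counted letters look like at members described above. The matches of Cd36, Inhba and Sema3a lay within the increased region, and those of Dmd, Ezh2 and Mcm3 lay outside it.
Cd36 E-box, chr5:17888807-17888832, minus strand: ccagaattctCAGCTGctccgctgtg
Cd36 TEAD, chr5:17888898-17888923, minus strand: ctgaaggactGGAATGctcaggatgt
Dmd AP-1, chrX:82948675-82948701, plus strand: ggtttggatgTGACTCAgaacacagtt
Dmd AP-1, chrX:82948874-82948900, plus strand: gttactatgtTGACTCActcagtgttg
Inhba MEF2, chr13:16011745-16011774, plus strand: catacaacttCTAAATATAAatctctggca
Inhba TATA, chr13:16011750-16011775, plus strand: aacttctaaaTATAAAtctctggcac
Sema3a RUNX, chr5:13396764-13396783, plus strand: tagccttcatTGTGGTacaa
Ezh2 TEAD, chr6:47595400-47595425, minus strand: actcagcgccCATTCCcgccaagagc
Mcm3 TEAD, chr1:20820356-20820381, minus strand: atccaggcacGGAATGaaaggctatt
In the TEAD matches of Cd36 and Mcm3, GGAATG is CATTCC read on the opposite strand. The E-box of Cd36 lay 21 bases before its first start. The AP-1 matches of Dmd lay 218 and 19 bases before an internal start (chrX:82948903), and the second of them lay downstream of the first start (chrX:82948870). The MEF2 and TATA matches of Inhba overlapped, at 96 and 91 bases before its first start.

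The increased promoter regions were spread over all 16 chromosomes. Their share among promoter regions of both directions was 34.0% (interval 31.0 to 37.1) in the pool and ranged from 22.0% on chromosome 17 (13 increased, 46 decreased) to 57.1% on chromosome 13 (24 increased, 18 decreased). On chromosomes 13 and 18 increased regions outnumbered decreased ones. Per 1000 annotated genes, increased promoter regions numbered between 2.76 on chromosome 14 and 15.7 on chromosome 18. The rule left out chromosomes 4, 7, 10 and 16. With them included, there were 593 increased and 815 decreased promoter regions.

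**Figure D5:**
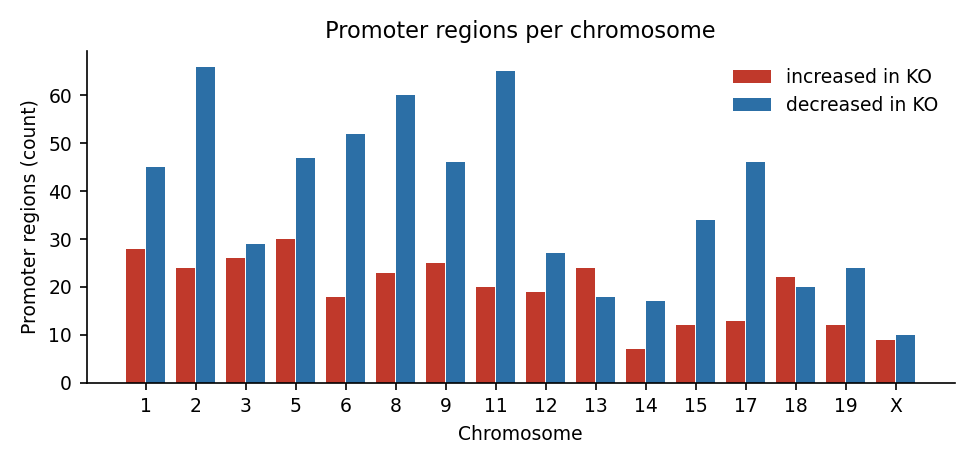
Bars give the number of increased (red) and decreased (blue) promoter regions on each of the 16 chromosomes used. Increased regions outnumber decreased ones on chromosome 13 (24 and 18) and chromosome 18 (22 and 20), and decreased ones are more numerous on the other chromosomes.

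Most increased promoter regions stood alone. Within 50 kb, 173 of 312 had no other region of either list (55.4%), 76 had further increased regions only (24.4%), 55 decreased regions only (17.6%) and 8 both (2.56%). Of the 606 decreased promoter regions, 231 had none (38.1%), 321 further decreased regions only (53.0%), 27 increased regions only (4.46%) and 27 both (4.46%). The decreased list is the larger one, and these shares were not adjusted for that. The increased promoter region with most neighbours was at Pla2g4a, a cytosolic phospholipase A2, with 9 other increased regions within that distance.

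At the limit of the definition, the members with the largest distances to a start were at Gm12144 (987.5 bases), Gm28660 (994.5 bases) and Fgfr1op (995.5 bases). The nearest increased regions outside it were at Setd2, a methyltransferase for lysine 36 of histone H3 (1005.5 bases), Serpinb9d (1009 bases) and Zdhhc16 (1010 bases).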

How the data were processed

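H3K27ac and IgG CUT&RUN, in which an antibody guides a nuclease to marked chromatin, was done by the authors, who aligned paired reads to mm10 with BWA-MEM2 (2.2.1), called broad peaks with HOMER (4.11) and took a 2-fold difference between KO and control as differential. How replicates and IgG entered the calls is not given in the sources used here, and labels and methods name different suppliers of the H3K27ac antibody. The deposited lists give chromosome, start, end and a score that is the same for every region and was not used. Groups came from the sample titles. Depth per library is unknown. A difference in depth, efficiency or DNA copy number between cultures would pass into the calls, which was not tested.

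Starts were taken from GENCODE M21 and sequence from GRCm38. Coordinates are counted from 1. The annotation the authors used may differ. Members, lists and motifs were chosen with earlier results of these data known. Named genes were the 10 widest increased regions, genes with several regions or both directions, list genes, regions nearest the limit and the genes whose sequences are printed. Pla2g4a and the genes of the closing section were chosen after their values were seen. The name of 1 list gene is left out. Sequences were those of the widest regions in each class, without chromosome 18 and without annotated UTR. The 6 shares were compared with two-sided Fisher's exact tests (scipy 1.17.1) with Benjamini-Hochberg adjustment at 0.05, which were tested on simulated shares. Alternatives varied the distance, the start set, the chromosomes, the width, the unit counted and the CpG definition. Regions near one another are not independent, so p-values over regions may be too small.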

Additional observations from a re-analysis of the deposited data

How the results depend on the processing

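Of 78 alternative values, 52 kept their direction and side of the threshold or stayed within 1.5 times the count. The lower share of wide regions held in every alternative run, with odds ratios from 0.393 to 0.676. The cause of the other changes was not tested. With centres within 0.5 kb of a start, the odds ratio of CpG-rich starts was 1.13, of divergent starts 0.845 and of first starts 0.958. With only regions of at least 1 kb, it was 1.44 for CpG-rich starts, 2.03 for first starts and 1.89 for protein-coding starts, none past the threshold with fewer regions. The CpG window on the region centre gave 0.684, and 1 region per locus gave 1.38 for first starts. With protein-coding starts only, divergent starts gave 0.823 and downstream centres 0.856. Divergent starts passed the threshold within 2.5 kb (1.52), with any base of the region (1.55) and with chromosomes 4, 7, 10 and 16 included (1.96).

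Within 0.5 and 2.5 kb, increased promoter regions numbered 170 and 487, decreased ones 383 and 1141, genes with an increased region 184 and 568, with a decreased region 417 and 1235, and with both 2 and 25. At least 1 kb wide were 76 and 256 regions, and 593 increased regions were found with the 4 chromosomes included. No paired analysis was possible because the lists hold no value per library, and leaving out a replicate could not be run for the same reason.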

Other observations

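Some increased promoter regions outside the gene lists were at genes of DNA replication, chromosome structure and mitosis. They were chosen after their values were seen, decreased promoter regions at such genes were not counted, so their number says nothing of a theme, and in the cell cycle list 1 of 29 genes was increased. At Tyms, the thymidylate synthase, a region of 501 bases was centred 320.5 bases upstream of a first start (chr5:30073687-30074187). At Cdc25a, a phosphatase that activates cyclin-dependent kinases, the region measured 1177 bases and was centred 526.5 bases downstream of an internal start. Ncapg, a condensin subunit, had a region centred 322.5 bases downstream of the nearest start. Sgo1, the shugoshin that protects centromeric cohesion, had one centred 517.5 bases downstream of its nearest start. The histone gene Hist1h4f and the pair Hist1h2ad and Hist1h2bf, all on chromosome 13, had regions of 501 bases. Histone genes have near-identical copies, so reads cannot always be told apart between them and these calls are uncertain.

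Repeats made up a small part of the increased promoter regions. The median soft-masked share of the sequence was 11.8%, compared with 9.89% for decreased promoter regions, and more than 50% was masked in 2 of 312 increased (0.641%) and 13 of 606 decreased regions (2.15%). The 2 increased ones were those named above at Tyms (58.9% masked) and at Hist1h2ad and Hist1h2bf (50.7%).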
